A study of Mus musculus with 34 samples.

Results

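The 36 genes described here are DNA repair and checkpoint genes listed by name, a list chosen with earlier results of these data known. It holds the Fanconi anemia genes *Fanca*, *Fancb*, *Fancc*, *Fancg*, *Fancm*, *Fancd2* and *Fanci* and the homologous recombination genes. It also holds the kinases and adaptors that signal DNA damage, and a few genes of mismatch and single-strand break repair. All 36 of the 36 listed symbols were found among the 23509 genes of every table, and all 36 passed the filter on low counts that left 15644 genes for testing. Kidney mRNA was sequenced from 34 mice at postnatal day 28. *Pkd2*-KO mice, a model of polycystic kidney disease on the C57BL6 background, received RGLS4326 (n = 11) or PBS (n = 11), and untreated non-transgenic C57BL6 mice (UNT, n = 12) served for comparison. All 11 PBS libraries of the labels were used, although the study's text counts fewer PBS mice for its RNA sequencing. RGLS4326, an oligonucleotide inhibitor of the microRNA miR-17, was given subcutaneously at 20 mg per kg body weight on postnatal days 10, 11, 12 and 19, and PBS on the same days. Both injected groups carry the knockout, and UNT mice received no injection, so genotype and injection cannot be told apart in PBS vs UNT. Per the study, the knockout is made by Cre under *Pkhd1* control acting on floxed *Pkd2* (Pkhd1/cre;Pkd2 F/F). *Pkhd1* is expressed in renal tubule epithelium, so other cells of the kidney keep the gene. Control oligonucleotide samples were not analysed here.

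The Fanconi anemia (FA) pathway repairs crosslinks between DNA strands at stalled replication forks. A nuclear core complex attaches ubiquitin to the paired proteins FANCD2 and FANCI, which hand the lesion on to nucleases and to homologous recombination, the copying of the sister strand under the control of BRCA1, PALB2 and BRCA2. ATM and ATR are the kinases that sense broken and single-stranded DNA, and CHEK2 and CHEK1 relay their signals to the cell cycle. Many of these genes are expressed mainly in dividing cells around S phase, and in the kidney the pathway is known for inherited nephropathy through loss of the FA-associated nuclease FAN1.

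RGLS4326 acts on microRNAs that share the seed of miR-17, so the family and the matches to its seed in the repair genes are shown first. The 6 mature family members in the RefSeq annotation of GRCm38.p6 have the same seed, bases 2 to 8, in capitals.
mmu-miR-93-5p: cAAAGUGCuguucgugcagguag
mmu-miR-106b-5p: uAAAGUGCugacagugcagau
mmu-miR-17-5p: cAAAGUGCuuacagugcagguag
mmu-miR-20a-5p: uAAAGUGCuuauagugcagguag
mmu-miR-20b-5p: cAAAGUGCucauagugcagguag
mmu-miR-106a-5p: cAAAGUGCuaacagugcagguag

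A match to this seed in the 3′UTR is a string of letters and not a known target site. A search of the longest 3′UTR that GENCODE M21 gives a gene (GRCm38) for the 8-base match GCACTTTA and its 7-base parts GCACTTT and CACTTTA found 9 matches in 8 of the 36 genes (22.2%), beside 3011 of 14193 tested genes with an annotated 3′UTR (21.2%). The 9 matches are shown with their flanking bases, the match in capitals, in the sense of the mRNA, and with the coordinates of the match.
Fanca 7mer-A1 chr8:123302221-123302227: atccagagcatCACTTTAtcctctgaggg
Fancg 7mer-m8 chr4:43002746-43002752: gtctgctcatgGCACTTTtcttccttcct
Fancd2 7mer-A1 chr6:113596303-113596309: acctttttcctCACTTTAgatgtgattat
Fanci 7mer-m8 chr7:79450231-79450237: cacataagaatGCACTTTggcttatacaa
Brip1 7mer-A1 chr11:86060781-86060787: aaatctagccaCACTTTAgccatatgtca
Brip1 7mer-A1 chr11:86060408-86060414: tctaataatttCACTTTActgtcctcata
Rad54b 7mer-A1 chr4:11583972-11583978: aaagtggagaaCACTTTAggtctctgcta
Chek2 8mer chr5:110873917-110873924: tttgatgacctGCACTTTAgatttctttct
Trp53bp1 7mer-A1 chr2:121198159-121198165: agcaggcttgtCACTTTAgcagtacagca

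*Brip1* held 2 matches of 7 bases, *Chek2* held the only 8-base match, and the other 28 genes held none. Matches in *Fanca*, *Fancd2*, *Rad54b* and *Trp53bp1* were of the same 7-base kind as those in *Brip1*, and those in *Fancg* and *Fanci* were of the other.

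Libraries held from 17603122 to 54981992 reads in genes. The genotype was checked on *Pkd2*, whose CPM (counts scaled to library size after TMM normalisation) were 219.6, 274 and 338 (lowest, median and highest mouse) in UNT, 98.0, 165 and 215 in PBS and 170.0, 210.3 and 237 in RGLS4326. Every PBS mouse was below every UNT mouse, while 5 of the 11 RGLS4326 mice were above the lowest UNT mouse, so the treated group overlapped UNT. The study describes *Pkd2* as a direct target of miR-17 and reports that RGLS4326 raised it. Here *Pkd2* was higher in RGLS4326 than in PBS by edgeR (0.39 ± 0.093 (SE) on the log2 scale, adjusted p = 0.00439). The tables count the whole gene in all cells of the kidney, including reads from cells and exons that keep it. The labels write the knockout as "Pdk2KO", while the study's text names it *Pkd2*-KO. *Pdk2*, a kinase of pyruvate metabolism, read 217, 259 and 365 CPM in UNT, 86.8, 114 and 152 in PBS and 75.5, 109.8 and 155 in RGLS4326. All PBS and RGLS4326 mice were below every UNT mouse for *Pdk2*. The kidney was recognisable by its markers: the summed CPM of 8 proximal tubule genes ranged from 25429 to 36266 in UNT, from 1104 to 5251 in PBS and from 2844 to 5710.1 in RGLS4326. Adrenal cortex genes summed to 588 and 1005 CPM in PBS mice 2 and 11 and to at most 29.5 in the other 32 libraries, with *Cyp11b1* and *Cyp11b2* at 0 in every UNT mouse, and PBS mouse 9 was the library least like its group (median r 0.972 with the others). The library numbers in the table names fall into 3 runs, each of which holds mice of all groups, and these are called numbering runs 1 to 3.

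The repair genes were expressed at low levels. Per kilobase of exon, the group means in UNT ranged from 0.171 CPM per kb for *Exo1* to 13.9 for *Nbn*, with a median over the 36 genes of 1.62. *Nbn* and *Parp1* were the most abundant in UNT, and *Parp1* in both *Pkd2*-KO groups (17.1 CPM per kb in PBS and 16.1 in RGLS4326). By role, the 3 genes of mismatch and base repair were at a median of 7.95 CPM per kb in UNT, the 7 end processing and helicase genes at 3.02, the 9 signalling and checkpoint genes at 2.70, the 5 FA core genes at 1.82, the 10 homologous recombination genes at 0.528 and the *Fancd2*-*Fanci* pair at 0.440. The least abundant genes had few reads, *Exo1* from 19 to 190.0 per library and *Rad54b* from 21 to 166. Exons of 17 of the 36 genes overlap another gene, over more than 10% of the exon bases in *Fanca*, *Fancc*, *Fanci*, *Rad54l*, *Rad54b*, *Atrip* and *Trp53bp1*. The strand setting of the counting is not given in the sources used here, so values of these 7 genes are uncertain where the neighbour is on the other strand, and in *Rad54b* and *Atrip* also because *Fsbp* and *Trex1* share their strand.

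**Figure D1:**
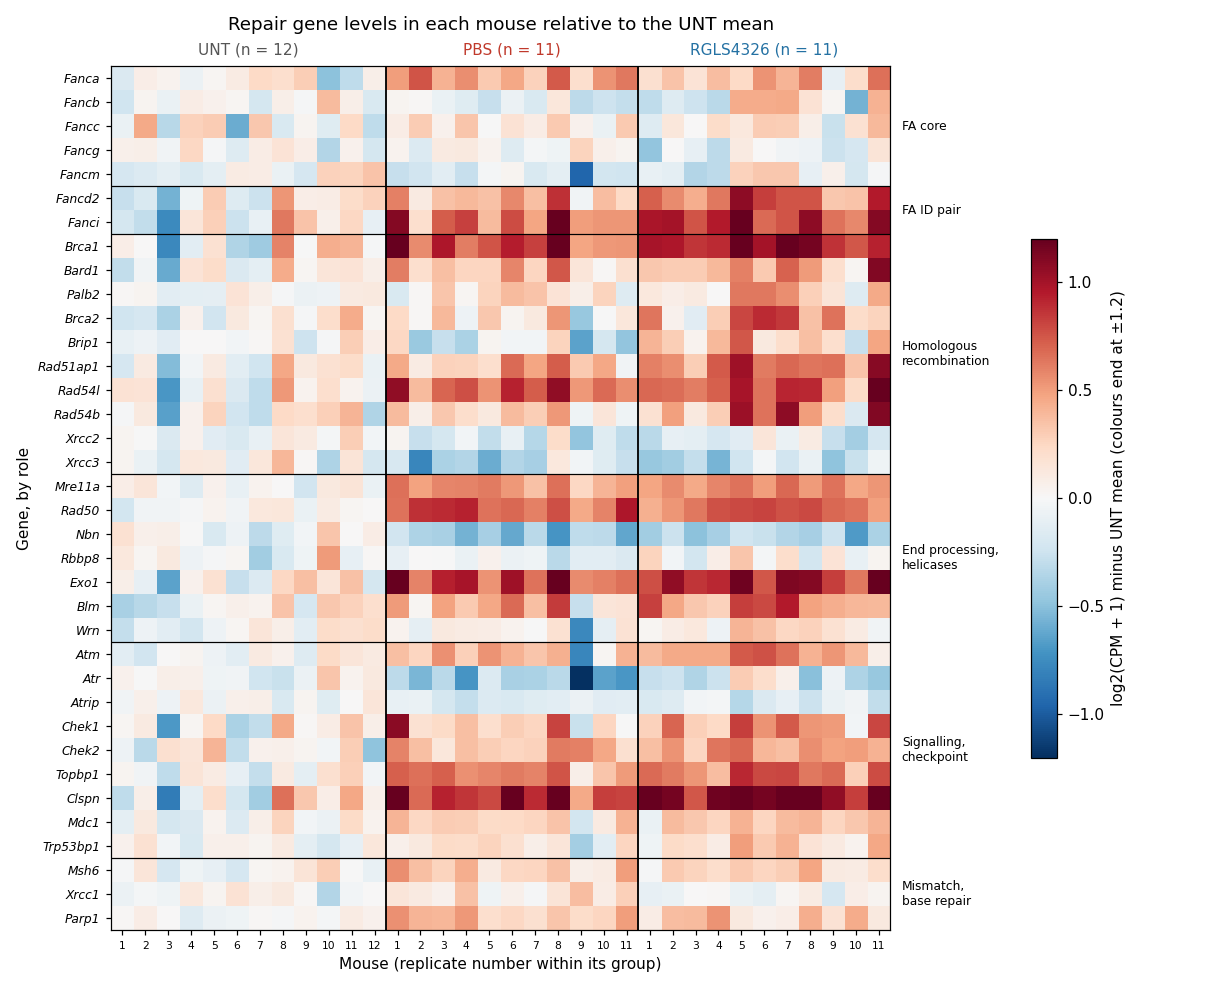
Level of each of the 36 genes (rows, by role) in each of the 34 mice (columns, by group), as log2(CPM + 1) minus the mean of the 12 UNT mice, red for higher and blue for lower. *Clspn*, *Exo1*, *Brca1* and *Fanci* are red across the PBS and RGLS4326 mice, *Nbn* is blue, and PBS mouse 9 stands out as blue for *Atr*, *Atm*, *Wrn* and *Fancm*.

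The first comparison, PBS vs UNT, asks how cystic kidneys differ from non-transgenic ones. Of the 36 repair genes, 20 were higher in PBS at an adjusted p under 0.05 by edgeR's quasi-likelihood test, 6 were lower and 10 were not called. Among all 15644 tested genes, 82.1% were called, 43.1% higher and 39.0% lower. The genes called higher were thus a larger share of the repair genes (55.6%) than of all genes and the genes called lower a smaller one (16.7%). The share called in either direction (72.2%) was below the background. Because the list was chosen with earlier results of these data known, these shares are a description and were not tested. Of 97 other repair genes, 29.9% were higher and 37.1% lower. The median log2 fold change was 0.29 over the repair genes and 0.038 over all tested genes. Groups did not overlap for 4 genes, *Mre11a*, *Rad50*, *Exo1* and *Parp1*, each with every PBS mouse above every UNT mouse, and for none with every PBS mouse below. Over all tested genes 22.7% stood apart upward and 19.8% downward. Whole kidney RNA was measured, so a different share of cells of a type and a different amount of RNA per cell cannot be told apart.

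In the FA core complex, *Fanca*, a subunit of the complex, rose (0.51 ± 0.090 (SE) on the log2 scale, adjusted p = 4.54e-06), at 12.2, 18.4 and 21.8 CPM in UNT (lowest, median and highest mouse) against 20.5, 25.4 and 30.4 in PBS. *Fancm*, the translocase that recruits the core complex to forked DNA, fell, with 11.9, 12.9 and 17.8 CPM in UNT and 6.66, 11.8 and 14.2 in PBS (-0.25 ± 0.10, adjusted p = 0.0263). Its run values were -0.083, -0.15 and -0.57, of which only that of run 3 was called, and with the percentage of reads outside genes as a covariate it was 0.15 and not called (adjusted p = 0.265). Values of *Fancb*, *Fancc* and *Fancg* were -0.19, 0.13 and 0.024 on the log2 scale and did not pass the test. Both targets of the complex rose over all runs. In runs 1, 2 and 3 alone *Fancd2* read 0.79, 0.32 and 0.30, called only in run 1. *Fanci* read 1.23, 0.52 and 0.72, not called in run 2. *Fancd2* was at 1.66, 2.97 and 4.67 CPM in UNT and 2.82, 4.05 and 6.24 in PBS (0.48 ± 0.14, adjusted p = 0.00233), and *Fanci* at 1.23, 2.76 and 4.85 and 3.35, 4.44 and 7.95 (0.82 ± 0.16, adjusted p = 1.63e-05), with overlapping groups in each.

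Homologous recombination genes were split. *Rad54l* (chr4:116094264-116123690, minus strand), a motor protein that remodels DNA for strand exchange, showed 0.989, 2.33 and 3.63 CPM in UNT and 3.20, 4.24 and 5.77 in PBS, and 10 of the 11 PBS mice exceeded the highest UNT mouse. Its fold change was 1.91 (0.93 ± 0.15, adjusted p = 5.72e-07). *Brca1*, the ubiquitin ligase that promotes recombination, had 1.95, 4.03 and 6.61 CPM in UNT and 6.0, 7.47 and 11.8 in PBS, a 1.88-fold rise (0.91 ± 0.15, adjusted p = 9.50e-07), and its partner *Bard1* rose by 0.43 (adjusted p = 0.00749). *Rad51ap1*, which promotes strand pairing in recombination, rose by 0.46 (adjusted p = 0.00187). In runs 1, 2 and 3 alone *Bard1* read 0.74, 0.27 and 0.27 and *Rad51ap1* 0.54, 0.40 and 0.35. Both were called only in run 1. *Palb2*, *Brca2*, *Brip1* and *Rad54b* were not called, at 0.20, 0.14, -0.19 and 0.28.

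*Xrcc2* and *Xrcc3*, which act in strand exchange, went the other way from most called genes of this role. *Xrcc3* (chr12:111803192-111813873, minus strand) had 2.41, 3.48 and 4.82 CPM in UNT, 1.56, 2.45 and 3.82 in PBS and 1.99, 2.66 and 3.34 in RGLS4326, with overlapping ranges (-0.40 ± 0.12, adjusted p = 0.00342, PBS vs UNT). Within numbering runs 1, 2 and 3 its log2 fold change was -0.59, -0.79 and 0.016, so run 3 showed no fall. *Xrcc2* fell less, from 6.36, 7.27 and 9.23 to 5.03, 6.20 and 8.73 CPM (-0.19 ± 0.085, adjusted p = 0.0368). Without PBS mice 2 and 11 its value was -0.16 and not called (adjusted p = 0.106).

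The MRN complex of MRE11, RAD50 and NBN binds broken ends and activates ATM, and its 3 genes did not move together. *Rad50* (chr11:53649519-53707319, minus strand), the zinc-hook ATPase of the complex, was at 19.8, 23.2 and 25.7 CPM in UNT, 32.2, 38.1 and 46.7 in PBS and 31.5, 38.2 and 41.6 in RGLS4326. All PBS mice were above all UNT mice (1.70-fold, 0.76 ± 0.060, adjusted p = 4.35e-14). *Mre11a* (chr9:14784654-14837123, plus strand), the nuclease, was at 9.44, 11.5 and 12.6 CPM in UNT, 13.6, 16.5 and 18.4 in PBS and 15.9, 16.7 and 18.8 in RGLS4326, again without overlap between PBS and UNT (1.46-fold, 0.55 ± 0.058, adjusted p = 8.19e-11). *Nbn* (chr4:15957925-15992589, plus strand), the subunit that docks ATM, was at 27.98, 34.9 and 44.5 CPM in UNT, 21.0, 26.5 and 29.8 in PBS and 21.5, 26.7 and 29.4 in RGLS4326. It fell (-0.46 ± 0.068, adjusted p = 1.72e-07), and 9 of the 11 PBS mice were below the lowest UNT mouse. The opposite directions of *Rad50* and *Nbn* held in each numbering run, at 0.88, 0.64 and 0.72 for *Rad50* and -0.45, -0.34 and -0.61 for *Nbn*.

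*Exo1* (chr1:175880581-175913489, plus strand), the exonuclease that lengthens single-stranded ends, had the highest fold change of the 36 genes. It was at 0.535, 1.5 and 2.08 CPM in UNT, 2.49, 2.78 and 4.54 in PBS and 2.71, 3.49 and 4.50 in RGLS4326, a 2.26-fold rise without overlap (1.18 ± 0.16, adjusted p = 2.11e-08). *Blm*, a RecQ helicase that dissolves crossed strands, rose (0.43 ± 0.13, adjusted p = 0.00433). Its values in runs 1, 2 and 3 were 0.75, 0.38 and 0.13, and that of run 3 was not called. The RecQ helicase *Wrn* and *Rbbp8*, which starts end resection, were at -0.012 and -0.11 and not called.

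Among the signalling genes, *Clspn* (chr4:126556935-126593903, plus strand), the adaptor through which ATR activates CHEK1, was at 1.31, 3.33 and 5.53 CPM in UNT, 4.67, 6.48 and 11.3 in PBS and 5.91, 8.26 and 10.0 in RGLS4326. In PBS, 10 of 11 mice exceeded every UNT mouse (2.19-fold, 1.13 ± 0.16, adjusted p = 1.10e-07). *Topbp1* (chr9:103305215-103350428, plus strand), the activator of ATR, was at 24.2, 30.1 and 36.9 CPM in UNT, 31.7, 46.0 and 51.4 in PBS and 36.9, 48.8 and 57.03 in RGLS4326, also with 10 of 11 PBS mice above the UNT range (0.57 ± 0.078, adjusted p = 3.16e-08). The kinases *Atm*, *Chek1* and *Chek2* rose by 0.30, 0.40 and 0.40 (adjusted p = 0.00626, 0.0219 and 0.000148). *Mdc1*, the adaptor that binds phosphorylated histone H2AX, rose by 0.25 (adjusted p = 0.000974). In runs 1, 2 and 3 alone *Atm* read 0.45, 0.38 and 0.0081, not called in run 3. *Chek1* read 0.78, 0.25 and 0.15, called only in run 1, and *Chek2* 0.37, 0.20 and 0.54, called only in run 3. *Mdc1* read 0.38, 0.17 and 0.14, called only in run 1. *Trp53bp1*, which limits end resection, read 0.10 (adjusted p = 0.182) and was not called.

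*Atr* and its binding partner *Atrip* fell, while *Topbp1*, *Clspn* and *Chek1* of the same signalling arm rose. *Atr* (chr9:95857597-95951781, plus strand) was at 37.7, 46.1 and 57.6 CPM in UNT and 19.0, 34.5 and 40.5 in PBS, and 10 of the 11 PBS mice were below the lowest UNT mouse (-0.52 ± 0.10, adjusted p = 1.75e-05). Without PBS mouse 9, the lowest for *Atr*, the log2 fold change was -0.49 (adjusted p = 1.04e-05). With the percentage of reads outside genes as a covariate it was -0.22 and not called (adjusted p = 0.135). *Atrip* (chr9:109057933-109074124, minus strand) fell by a small amount, from 12.8, 14.8 and 16.2 CPM to 11.8, 13.2 and 13.8 (-0.16 ± 0.051, adjusted p = 0.00490). Its reads may include those of *Trex1*, whose exons lie on the same strand.

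All 3 genes of mismatch and base repair were called higher over all runs. *Parp1*, the sensor of strand breaks, went from 63.5, 70.9 and 75.8 CPM in UNT to 80.8, 89.5 and 104 in PBS without overlap (0.36 ± 0.058, adjusted p = 9.25e-07), although with the percentage of reads outside genes as a covariate its value was 0.093 and not called (adjusted p = 0.173). *Msh6*, the mismatch recognition subunit, rose by 0.30 (adjusted p = 5.92e-05), and *Xrcc1*, the scaffold of single-strand break repair, by 0.15 (adjusted p = 0.0180), a call that was lost without PBS mouse 9 (0.089, adjusted p = 0.135) and with the covariate (0.047, adjusted p = 0.617). The run values of *Xrcc1* were 0.069, -0.037 and 0.32, of which only that of run 3 was called.

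**Figure D2:**
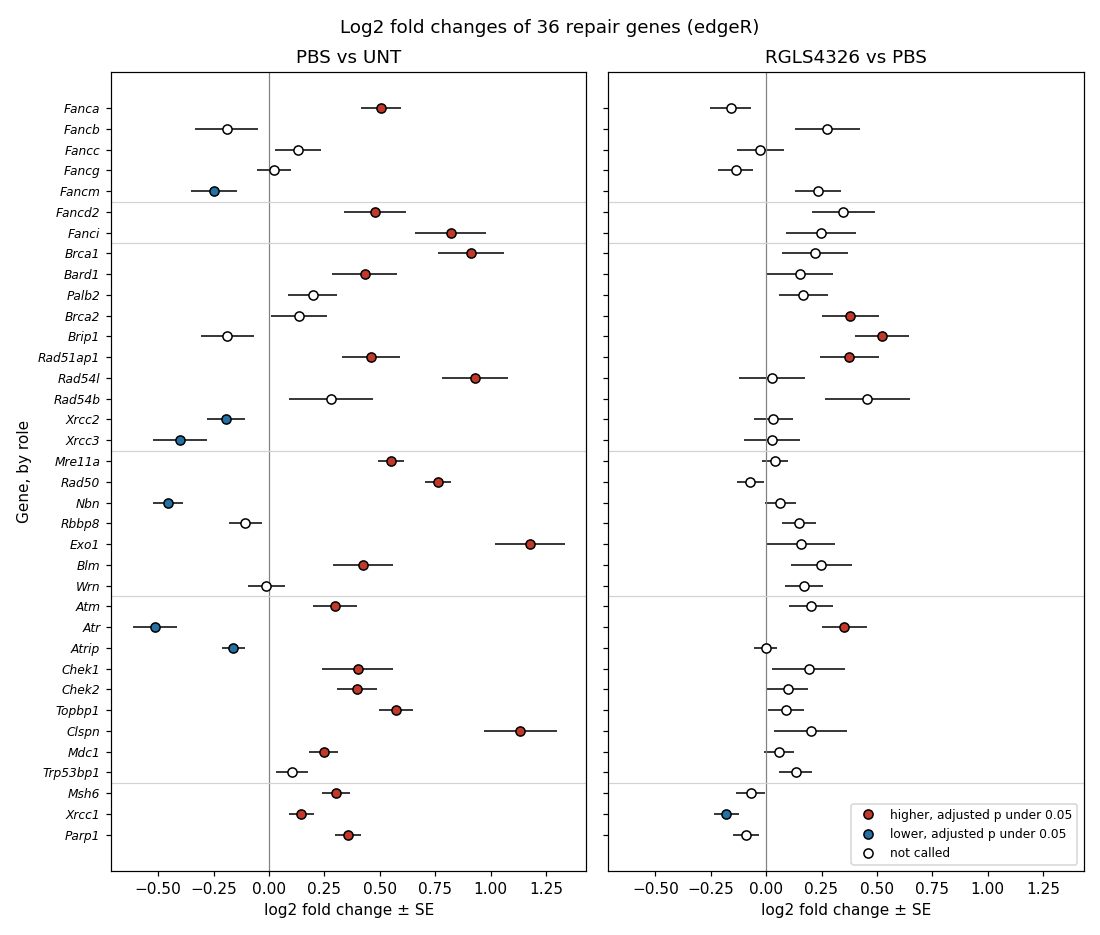
Log2 fold change ± SE of each gene in PBS vs UNT (left) and RGLS4326 vs PBS (right), by role, from the edgeR fit of all 34 libraries, with filled points for genes called at an adjusted p under 0.05. The left panel spreads from -0.52 for *Atr* to 1.18 for *Exo1*, and the right panel from -0.18 for *Xrcc1* to 0.52 for *Brip1*.

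*Clspn* and *Topbp1* are also among the repair genes whose promoter holds a motif of E2F, the factor family that switches on replication genes, and their promoters are shown for that reason, spanning the annotated start of transcription (RefSeq, GRCm38.p6, sense of the gene), with the motif in capitals, which in both is the reverse complement of TTTCGCGC.
Clspn chr4:126556730-126557029: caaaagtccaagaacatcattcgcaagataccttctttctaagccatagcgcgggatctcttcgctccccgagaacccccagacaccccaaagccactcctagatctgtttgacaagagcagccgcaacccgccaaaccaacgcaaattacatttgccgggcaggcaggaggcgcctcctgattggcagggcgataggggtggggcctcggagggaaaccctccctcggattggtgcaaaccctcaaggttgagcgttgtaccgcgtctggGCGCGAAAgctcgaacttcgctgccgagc
Topbp1 chr9:103305077-103305376: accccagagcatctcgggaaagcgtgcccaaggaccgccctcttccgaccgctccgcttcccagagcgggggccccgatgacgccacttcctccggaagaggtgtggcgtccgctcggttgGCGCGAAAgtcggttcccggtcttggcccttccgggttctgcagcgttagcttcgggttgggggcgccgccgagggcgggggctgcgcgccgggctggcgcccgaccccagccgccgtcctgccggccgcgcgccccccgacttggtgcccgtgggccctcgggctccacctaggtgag

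The motif was searched on both strands as TTTCCCGC, TTTCGCGC, TTTGCCGC or TTTGGCGC. Promoters of 28 of the 36 genes were matched by symbol. The motif was in 8 of them (28.6%), *Bard1*, *Brca2*, *Chek2*, *Clspn*, *Fancg*, *Mdc1*, *Msh6* and *Topbp1*, against 2.60% of 27025 genes. That background also holds genes not tested here, unlike the 36. Among tested genes with a promoter, 492 held the motif and 11053 did not. *Wrn*, *Nbn*, *Xrcc2*, *Rbbp8*, *Rad50*, *Fancd2*, *Exo1* and *Rad54b* were not matched. Of the 8 genes with the motif, 6 were higher in PBS than in UNT and none was lower, with a median log2 fold change of 0.35. Of the 20 matched genes without it, 11 were higher and 4 lower, with a median of 0.25, and the difference between these few genes was not tested. Among all tested genes with a promoter in the table, 233 of the 492 with the motif were higher (47.4%) and 177 lower (median 0.12), and of the 11053 without it 4716 were higher (42.7%) and 4378 lower (median 0.026). The letters CCAAT were in 19 of the 28 promoters (67.9%, against 41.1% of genes). TTTGAA, the core of a cell cycle element, was only in that of *Bard1* (3.57%, against 20.2%). These backgrounds also hold genes not tested here. Among tested genes, CCAAT was in 4858 promoters and not in 6687, and TTTGAA in 1688 and not in 9857. A match of letters is a description and no binding site.

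Markers of dividing cells were also mostly higher in PBS than in UNT. *Mki67*, the standard marker of cycling cells, was at 17.2, 39.0 and 91.3 CPM in UNT, 44.4, 65.5 and 84.3 in PBS and 61.1, 81.1 and 122 in RGLS4326. Of 27 cycling genes, 24 were higher and 2 lower in PBS than in UNT (median log2 fold change 0.69), with summed CPM from 259 to 626 in UNT and from 562 to 854 in PBS, and none was at 0. The mouse with the lowest mean level of the repair genes was the lowest of its group for *Mki67* as well, UNT mouse 3 (17.2 CPM), PBS mouse 9 (44.4 CPM) and RGLS4326 mouse 10 (61.1 CPM). The wider cycling list did not follow in PBS, where its mean log2(CPM + 1) was 4.07 in mouse 9 and lowest in mouse 11 (3.89). UNT mouse 8 was the highest of its group for 12 of the 36 genes and PBS mouse 8 for 18, and each was also the highest of its group for *Mki67* (91.3 and 84.3 CPM). In RGLS4326 the mouse highest for most of the 36 genes was mouse 5 (14 genes), and *Mki67* was highest in mouse 11. Cell type lists moved as well. In PBS vs UNT all 8 proximal tubule genes were lower, all 6 macrophage genes higher (summed CPM from 93.4 to 166 in UNT and from 786 to 2544 in PBS), and all 5 fibroblast genes higher. The lists of the loop of Henle and distal tubule (4 of 4) and of podocytes (4 of 4) were lower, collecting duct genes were mostly higher (5 of 6, and 1 lower), and 3 of 5 endothelial genes were lower and 2 higher. Both neutrophil genes tested and 2 of 3 adipocyte genes were higher, and the 1 erythroid gene tested was lower. Of 6 lymphocyte genes 3 were higher and none lower, with summed CPM from 2.75 to 5.84 in UNT and from 4.93 to 17.7 in PBS. The part of dividing cells or of other cell types in the repair gene values was not tested.

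**Figure D3:**
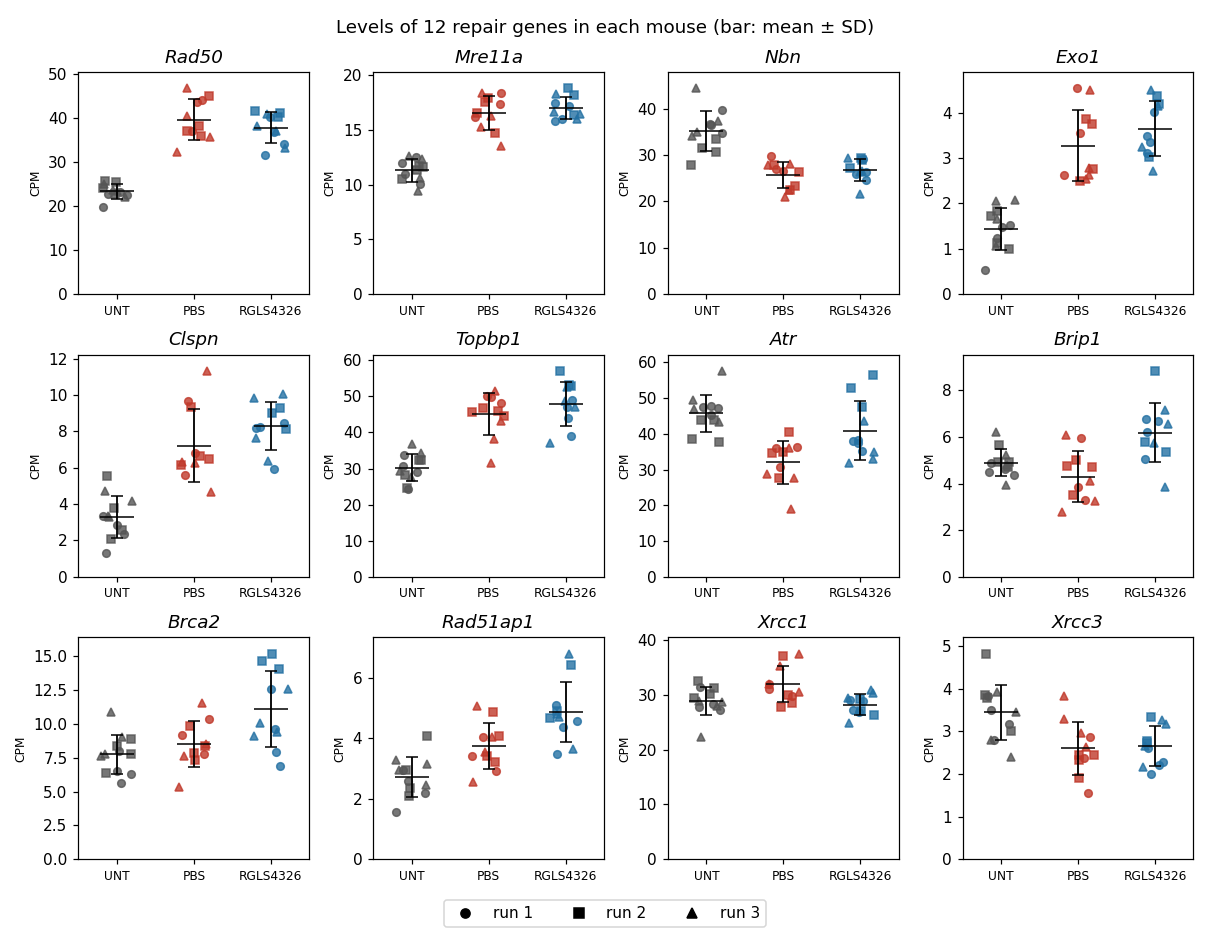
CPM of 12 of the repair genes in each mouse by group, with symbols for the numbering run and the mean ± SD of each group in black, on axes that start at 0. *Rad50*, *Mre11a* and *Exo1* do not overlap between UNT and PBS, *Nbn* and *Atr* are lower in PBS, and for *Brip1*, *Brca2*, *Rad51ap1* and *Xrcc1* the RGLS4326 and PBS mice overlap.

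The second comparison, RGLS4326 vs PBS, asks what treatment changed in the knockout kidneys. It shares the PBS mice with the first, so both sets of values depend on the same 11 libraries. Of the 36 genes, 4 were higher with RGLS4326 and 1 was lower, against 33.8% of all tested genes called, 15.3% higher and 18.5% lower. The share of repair genes called (13.9%) was below the background. For 28 of the 36 the fold change was above 0, with a median log2 value of 0.15 against 0.0022 over all tested genes. PBS and RGLS4326 mice overlapped for all 36 genes, and over all tested genes 0.0447% stood apart upward and 0.0192% downward.

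*Brip1* (chr11:86058138-86201193, minus strand), the helicase that binds BRCA1 and unwinds DNA at crosslinks, changed most. It was at 2.76, 4.09 and 6.07 CPM in PBS (lowest, median and highest mouse) and 3.84, 6.23 and 8.83 in RGLS4326, against 3.93, 4.85 and 6.19 in UNT. Of the 11 treated mice, 10 were above the PBS median and 6 above every PBS mouse (1.44-fold, 0.52 ± 0.12, adjusted p = 0.00418). *Brip1* is the gene with 2 seed matches of the kind shown above, in a long 3′UTR of 3291 bases. A part of these matches in its values was not tested. The log2 fold change of *Brip1* in numbering runs 1, 2 and 3 was 0.51, 0.57 and 0.53. The treated group was also called higher than UNT (0.34 ± 0.12, adjusted p = 0.0118), with overlapping ranges. Of the 11 treated mice, 6 were above every UNT mouse and 1 was below every UNT mouse.

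*Brca2* (chr5:150522630-150570329, plus strand), a mediator of recombination, was at 5.33, 8.38 and 11.5 CPM in PBS and 6.89, 10.1 and 15.2 in RGLS4326, against 5.67, 7.79 and 10.8 in UNT. It rose with treatment (1.30-fold, 0.38 ± 0.13, adjusted p = 0.0247), with 5 treated mice above the PBS range. Run values were 0.029, 0.82 and 0.32, so run 1 showed almost no difference. *Rad51ap1* (chr6:126923050-126939587, minus strand) was at 1.55, 2.76 and 4.06 CPM in UNT, 2.57, 3.54 and 5.08 in PBS and 3.49, 4.71 and 6.79 in RGLS4326, and rose with treatment (0.37 ± 0.13, adjusted p = 0.0302, runs 0.35, 0.47 and 0.39). Without PBS mice 2 and 11, neither *Brca2* (0.37, adjusted p = 0.0615) nor *Rad51ap1* (0.29, adjusted p = 0.111) was called. With the percentage of reads outside genes as a covariate they read 0.17 and 0.25 (adjusted p = 0.453 and 0.332). *Atr* rose to 31.9, 37.9 and 56.5 CPM in RGLS4326 (0.35 ± 0.10, adjusted p = 0.0114), with 9 of 11 treated mice above the PBS median and run values of 0.12, 0.62 and 0.37. Against UNT its log2 value with treatment was -0.16 (adjusted p = 0.134) and not called over all runs, but runs 1, 2 and 3 alone gave -0.36, 0.33 and -0.46 (adjusted p = 0.000409, 0.0275 and 0.0369), each called and in opposite directions.

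*Xrcc1* (chr7:24546289-24573440, plus strand) was the only gene called lower. It was at 22.4, 28.8 and 32.6 CPM in UNT, 27.7, 31.0 and 37.4 in PBS and 24.8, 28.8 and 30.9 in RGLS4326, and no treated mouse was above the PBS median (-0.18 ± 0.058, adjusted p = 0.0192). Runs gave -0.14, -0.14 and -0.23. Without PBS mouse 9 its value was -0.14 and not called (adjusted p = 0.0600), and without PBS mice 2 and 11 it was -0.17 and not called (adjusted p = 0.0545).

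The other 31 genes did not pass the test. *Fancd2*, *Rad54b* and *Fancm* came nearest, with log2 fold changes of 0.35 ± 0.14, 0.46 ± 0.19 and 0.23 ± 0.10 (adjusted p = 0.0544, 0.0613 and 0.0785). With the run as a covariate *Fancd2* and *Fancm* were called higher (adjusted p = 0.0313 and 0.0425), and DESeq2's Wald test called *Fancd2* and *Rad54b*. Of the 31, *Fanca*, *Fancg* and *Parp1* had the values farthest below 0 (-0.16 ± 0.092, -0.14 ± 0.078 and -0.091 ± 0.059). The MRN genes *Rad50*, *Mre11a* and *Nbn* read -0.071 ± 0.061, 0.039 ± 0.059 and 0.064 ± 0.069 with treatment, and *Exo1* and *Clspn* 0.16 ± 0.16 and 0.20 ± 0.16. *Rad54l* was at 0.026 ± 0.15, with a 95% interval from -0.26 to 0.32.

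Repair genes with and without a seed match were not tested against each other. Among the 8 with a match, 1 (*Brip1*) was called higher and none lower, with a median of 0.19, and among the 28 without, 3 were higher and 1 lower, with a median of 0.15. Over all tested genes with an annotated 3′UTR, 26.0% of the 3011 with a match were higher and 9.90% lower, and of the 11182 without, 12.1% were higher and 21.6% lower. *Chek2*, with the 8-base match at chr5:110873917-110873924, was at 10.2, 12.0 and 14.6 CPM in PBS and 11.1, 13.2 and 15.4 in RGLS4326 (0.10 ± 0.092, adjusted p = 0.417).

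Treatment values were also computed within each numbering run. In run 1 (4 RGLS4326 and 3 PBS mice) the median log2 fold change of the 36 genes was -0.0072 and 17 were above 0, in run 2 (3 and 4 mice) it was 0.28 with 34 above 0, and in run 3 (4 and 4 mice) it was 0.17 with 26 above 0. Run 2 alone called 11 of the 36 genes higher, *Atm*, *Atr*, *Blm*, *Brca2*, *Brip1*, *Fancb*, *Fancm*, *Palb2*, *Rad54b*, *Trp53bp1* and *Wrn*, and 4065 of 15944 genes in all. Run 1 alone called none of the 36 by edgeR (3 at an unadjusted p under 0.05) and 54 of 15737 genes, and run 3 alone called none of the 36 (0 at an unadjusted p under 0.05) and 0 of 15676 genes (2826 at an unadjusted p under 0.05). A direct edgeR test of the run-by-treatment interaction called 0 of 15233 genes (796 at an unadjusted p under 0.05), and among the repair genes the smallest p was that of *Fancb* (adjusted p = 0.865), whose run values were -0.34, 0.84 and 0.30. In 15 genes the value was above 0 in all runs, and in *Xrcc1* and *Parp1* below 0 in all runs.

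**Figure D4:**
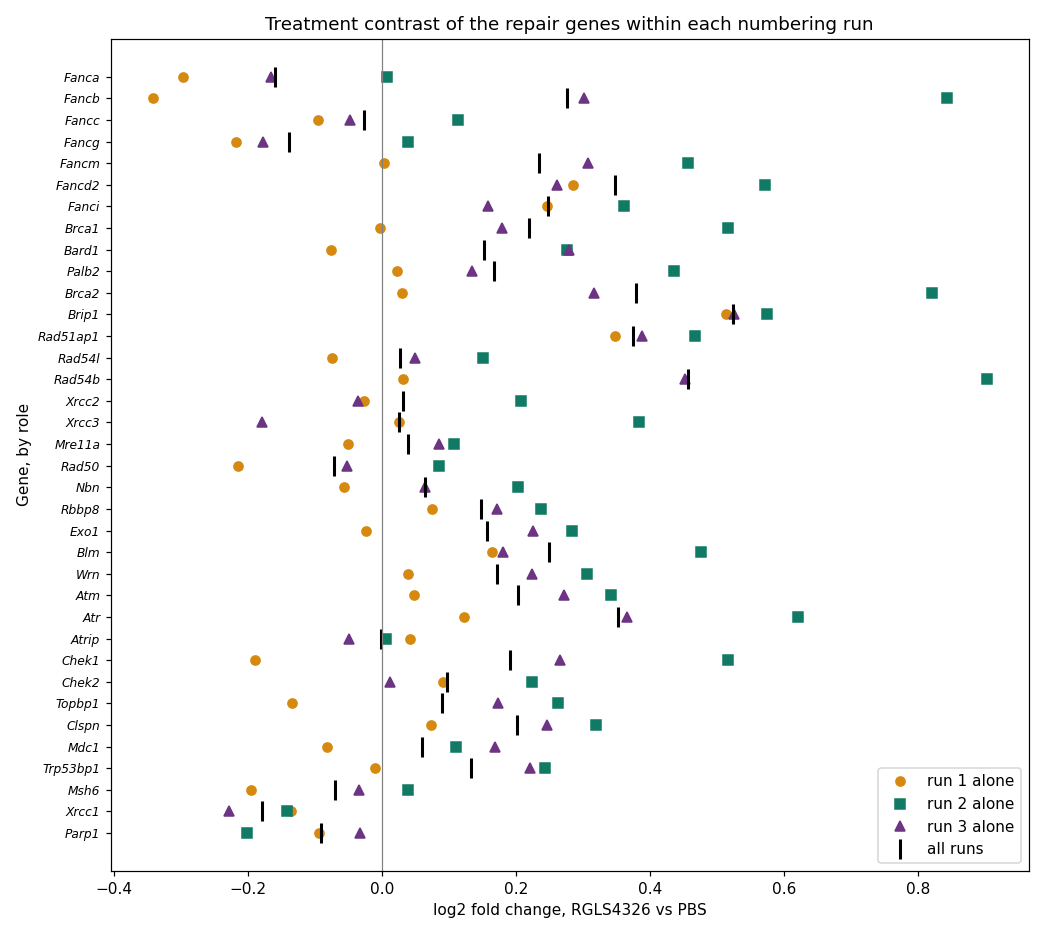
Log2 fold change of each repair gene in RGLS4326 vs PBS within numbering runs 1, 2 and 3 alone, with the value over all runs as a black bar. Run 2 lies to the right for most genes, with a median of 0.28 against -0.0072 in run 1 and 0.17 in run 3, and the points of *Brip1* lie close together.

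The share of reads that fell in no gene moved with treatment within run 2. There it was 11.3% to 12.0% in the RGLS4326 libraries and 5.49% to 9.0% in the PBS libraries, while the ranges overlapped in run 1 (4.94% to 8.38% and 5.18% to 7.24%) and in run 3 (6.14% to 11.7% and 5.67% to 6.65%). RGLS4326 mice 5, 6, 7 and 11 had the highest shares of their group and the highest mean log2(CPM + 1) of the 36 genes, 4.02, 3.90, 3.96 and 3.92. With this share as a covariate, none of the 36 genes was called in RGLS4326 vs PBS (2 at an unadjusted p under 0.05) and 89 of 15644 genes in all, and the median was 0.034. *Brip1* then read 0.41 (adjusted p = 0.107), *Atr* 0.19 and *Xrcc1* -0.13. UNT libraries were at 9.84% to 11.3%, so in PBS vs UNT the share also followed the groups, and the same covariate there left 21 genes higher and 2 lower. The calls of *Fancm*, *Xrcc2*, *Xrcc3*, *Atr*, *Chek2*, *Xrcc1* and *Parp1* were lost, the value of *Fancm* turned to 0.15, and *Palb2*, *Brca2*, *Rad54b* and *Trp53bp1* were called higher. What the share reflects was not tested.

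**Figure D5:**
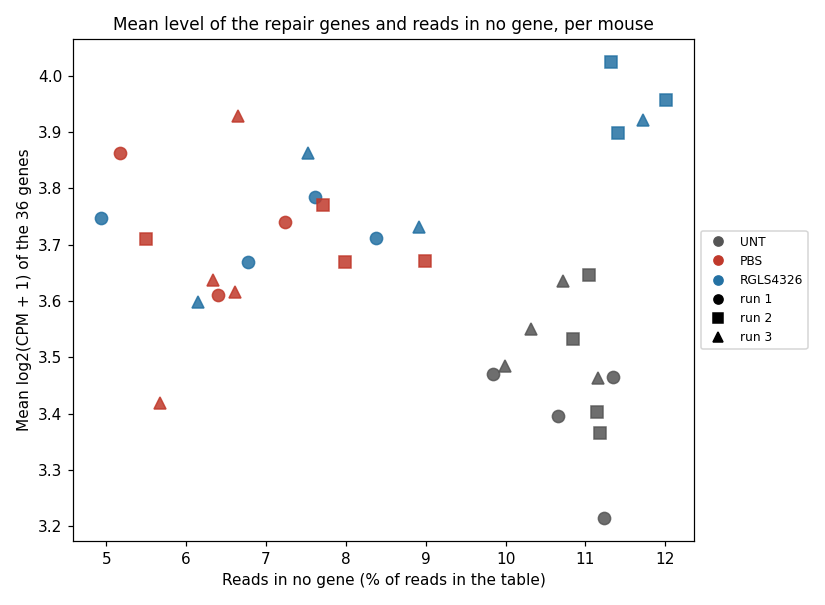
Mean log2(CPM + 1) of the 36 repair genes in each mouse (vertical) against the percentage of reads in no gene (horizontal), coloured by group with symbols for the numbering run. RGLS4326 mice 5, 6, 7 and 11 sit at the upper right, at 11.3% or more, and the UNT mice at 9.84% to 11.3% lie lower, between 3.21 and 3.65.

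Beside the treatment values, 2 of the 27 cycling genes were higher with RGLS4326 and none lower (median 0.061), with summed CPM from 580.3 to 833. Of the marker lists, 6 of 8 proximal tubule genes, 4 of 4 of the loop of Henle and distal tubule, 4 of 4 of podocytes, 4 of 5 endothelial genes and 1 of 5 fibroblast genes were higher and none lower. In the other direction, 4 of 6 collecting duct, 4 of 6 macrophage, 3 of 6 lymphocyte and 2 of 3 adipocyte genes were lower and none higher. The 1 adrenal gene tested was lower, and without PBS mice 2 and 11 only *Atr* and *Brip1* were called (adjusted p = 0.0409 and 0.0234). Their part in the values was not tested.

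The third comparison, RGLS4326 vs UNT, sets treated knockout kidneys against non-transgenic ones. Of the 36 genes, 24 were higher, 3 lower (*Xrcc3*, *Nbn* and *Atrip*) and 9 not called, against 77.7% of all tested genes called, 40.8% higher and 36.9% lower. Treated mice stood apart from UNT upward in 6 genes, *Mre11a*, *Rad50*, *Exo1*, *Brca1*, *Topbp1* and *Clspn*, and downward in none, where 20.7% of all tested genes stood apart upward and 16.1% downward. *Clspn* and *Exo1* were the most changed (1.34 ± 0.17, adjusted p = 4.82e-09, and 1.33 ± 0.16, adjusted p = 1.89e-09), followed by *Brca1* (1.13 ± 0.15) and *Fanci* (1.07 ± 0.16). *Fancd2* and *Rad51ap1* read 0.82 and 0.83, and *Brca2* 0.51 (adjusted p = 0.000435). *Nbn* remained lower than in UNT (-0.39 ± 0.068, adjusted p = 3.16e-06). Its values in runs 1, 2 and 3 alone were -0.51, -0.14 and -0.54, and that of run 2 was not called (adjusted p = 0.205). *Fancm*, *Xrcc1* and *Xrcc2* were not called (-0.014, -0.033 and -0.16).

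Mice of a group differed in the repair genes about as much as in other genes. The SD of log2(CPM + 1) over mice had a median over the 36 genes of 0.19 in UNT, 0.20 in PBS and 0.20 in RGLS4326, against 0.17, 0.20 and 0.19 over all tested genes. *Parp1* in UNT (0.070), *Atrip* in PBS (0.064) and *Mre11a* in RGLS4326 (0.082) varied least. *Clspn* in UNT (0.41), *Atm* in PBS (0.37) and *Rad54b* in RGLS4326 (0.43) varied most. PBS mouse 9 was the lowest of its group for 20 of the 36 genes, and RGLS4326 mouse 5 the highest of its group for 14.

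Of 97 other repair genes found in the tables and tested, 29 were higher (29.9%) and 36 lower (37.1%) in PBS than in UNT (median log2 fold change -0.057), against 43.1% and 39.0% of all tested genes. With RGLS4326 against PBS, 14 were higher (14.4%) and 9 lower (9.28%), with a median of 0.029, against 15.3% and 18.5% of all tested genes. Of the called genes with the largest changes upward in PBS, *Trp53*, which encodes p53, rose by 1.11, *Rad51b*, a recombination gene, by 1.05 and *Fen1*, the flap endonuclease, by 1.04. Downward, *Uvssa* of transcription-coupled repair read -1.44, the glycosylase *Neil2* -1.22 and the nuclease *Dna2* -0.98. With RGLS4326, the glycosylase *Neil3* (0.67), *Uvssa* (0.59) and the resolvase *Gen1* (0.50) rose most among the called genes, and *Mad2l2* (-0.35), the histone gene *H2afx* (-0.32) and *Rad9a* (-0.27) fell most.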

How the data were processed

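Kidney mRNA of 34 mice was sequenced as stranded paired-end libraries. Per the study's methods, the authors trimmed the reads with TrimGalore, aligned them with STAR to GRCm38 and counted unique reads per gene with HTSeq (version 0.6.1 in the submitters' processing notes). The deposited values are raw counts per gene symbol, 1 table per mouse. The annotation and strand setting of the counting are not given in the sources used here. Rows of reads in no gene (4.94% to 12.0% per library), ambiguous or not uniquely aligned were left out of library sizes and tests.

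Counts were scaled by TMM, genes with low counts removed with filterByExpr, and 15644 genes tested in 1 fit of 3 groups with the quasi-likelihood test of edgeR 4.0.16 (R 4.3.3), with p-values adjusted by Benjamini-Hochberg over all tested genes and a threshold of 0.05. Fold changes are log2 with standard errors, two-sided. CPM are TMM-scaled, and levels between genes are CPM per kb of union exon (GENCODE M21). DESeq2 1.42.0 was an alternative. The procedure was tested on simulated data. Reads per library ranged from 17603122 to 54981992, and no library pair was identical (0 pairs). The 34 mice are separate samples in the labels, and Python 3.11.15 and matplotlib 3.10.9 were used for summaries and figures.

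The members and gene lists were chosen with earlier results of these data known. All 36 genes are described by role, and those given by mouse are the 6 with the smallest p in each direction among the called genes of PBS vs UNT and RGLS4326 vs PBS, with the genes called against most of their role, *Pkd2*, *Pdk2* and *Mki67*. Of the other repair genes, the 3 largest called changes in each direction are named. Others named by mouse (*Fancd2*, *Fanci*, *Brca1*, *Fanca*, *Parp1*, *Chek2*) were chosen after their values were seen. Alternatives were DESeq2's size factors, no filter, DESeq2's Wald test, the run as a covariate, the replicate block, each run alone, only the groups compared and the percentage of reads outside genes as a covariate. Fits without PBS mouse 9 and without PBS mice 2 and 11 were chosen after seeing the data.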

Additional observations from a re-analysis of the deposited data

How the results depend on the processing

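The total counts of genes called in PBS vs UNT and in RGLS4326 vs UNT stayed within 1.5 times those reported under every setting except single runs, which hold 7 or 8 mice per comparison: 15 and 14 of the 36 genes in run 2 alone and run 3 alone for PBS vs UNT, and 12 in run 3 alone for RGLS4326 vs UNT. By direction, the lower calls of the 36 genes also went from 6 to 2 in PBS vs UNT with the percentage of reads outside genes as a covariate. With only the groups compared they went from 3 to 5 in RGLS4326 vs UNT. Runs 1, 2 and 3 alone called 18, 12 and 11 genes higher and 3, 3 and 3 lower in PBS vs UNT. In RGLS4326 vs UNT they called 18, 27 and 10 higher and 4, 0 and 2 lower. For RGLS4326 vs PBS, where edgeR called 5 of the 36 genes, 5280 of all genes and 23 other repair genes, run 1 alone gave 0, 54 and 0 (median log2 fold change of the 36 genes -0.0072), run 2 alone 11 of the 36, run 3 alone 0, 0 and 0, the percentage of reads outside genes as a covariate 0, 89 and 0, and the fit without PBS mice 2 and 11 gave 2, 2836 and 8; without PBS mouse 9 it was 4, 4082 and 16. DESeq2's Wald test called 7 of the 36 genes and the run as a covariate 7. The replicate numbers do not pair the mice, since deviations of same-numbered mice had a median correlation of -0.018 and 2 libraries correlated best with their own number; the replicate block called 6 of the 36 genes in RGLS4326 vs PBS, *Fancd2* (0.35, adjusted p = 0.0306) in addition to those reported, as did the fit of only the groups compared, and 26 in PBS vs UNT. Single runs hold fewer mice; otherwise the cause of a change was not tested. The depth limits the genes with fewest reads, *Exo1*, *Rad54b* and *Fancb*.

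Single genes changed sign as follows, with the log2 fold change under the setting; 3 of the changes were of called values (*Xrcc1* in run 2 alone, *Xrcc3* in run 3 alone and *Fancm* with the covariate, all in PBS vs UNT). In run 1 alone, Fancb 0.0089, Fancg -0.13 and Wrn 0.16 in PBS vs UNT, Atrip 0.041, Bard1 -0.075, Brca1 -0.0036, Chek1 -0.19, Exo1 -0.024, Fancb -0.34, Mdc1 -0.082, Mre11a -0.051, Nbn -0.056, Rad54l -0.074, Topbp1 -0.13, Trp53bp1 -0.011 and Xrcc2 -0.027 in RGLS4326 vs PBS, Fancb -0.33, Fancc -0.090 and Rbbp8 -0.052 in RGLS4326 vs UNT. In run 2 alone, Fancg -0.062, Rbbp8 0.067 and Xrcc1 -0.037 in PBS vs UNT, Atrip 0.0058, Fanca 0.0068, Fancc 0.11, Fancg 0.039, Msh6 0.038 and Rad50 0.085 in RGLS4326 vs PBS, Atr 0.33, Fancm 0.31 and Xrcc2 0.029 in RGLS4326 vs UNT. In run 3 alone, Brca2 -0.094, Rad54b -0.016 and Xrcc3 0.016 in PBS vs UNT, Xrcc2 -0.036 and Xrcc3 -0.18 in RGLS4326 vs PBS, Fancb -0.054, Fancg 0.012, Rbbp8 -0.14, Wrn -0.0022 and Xrcc1 0.10 in RGLS4326 vs UNT. With the percentage of reads outside genes as a covariate, Brip1 0.020, Fancb 0.35, Fancm 0.15, Rbbp8 0.018 and Wrn 0.15 in PBS vs UNT, Atrip 0.046, Bard1 -0.012, Fancb -0.059, Palb2 -0.12, Parp1 0.035, Rad54l -0.090, Topbp1 -0.032, Trp53bp1 -0.0045 and Xrcc3 -0.023 in RGLS4326 vs PBS, Fancm 0.17 in RGLS4326 vs UNT. In the other settings, Fancg -0.0099 in PBS vs UNT (DESeq2's Wald test), Fancg -0.010 in PBS vs UNT (DESeq2's size factors), Fancg -0.020 in PBS vs UNT, Atrip 0.011 in RGLS4326 vs PBS (no filter), Atrip 0.0023 in RGLS4326 vs PBS (only the groups compared), Wrn 0.0041 in PBS vs UNT, Fancm 0.017 in RGLS4326 vs UNT (the replicate block), Fancg -0.037 and 0.046, Wrn 0.018 and -0.020 in PBS vs UNT and Atrip 0.018 and 0.0084, Fancc -0.022 and 0.012, Rad54l 0.019 and -0.038, Xrcc3 0.078 and -0.033 in RGLS4326 vs PBS (each without PBS mouse 9 and without PBS mice 2 and 11).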

Other observations

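Outside the 36 genes, repair pathways are given by their counts in PBS vs UNT, where 43.1% of all tested genes were higher and 39.0% lower, and the pathways were not tested against each other. Of 14 nucleotide excision repair genes, which remove bulky lesions, 3 were higher (*Ercc1*, *Ercc3* and *Ddb1*) and 8 lower (median log2 fold change -0.24), and of 9 genes of non-homologous end joining none was higher and 4 were lower (*Xrcc5*, *Lig4*, *Dclre1c* and *Polm*, median -0.13). Base excision repair genes divided into 5 higher and 5 lower of 18, translesion synthesis genes into 3 higher and 2 lower of 7, and checkpoint genes into 5 higher and 4 lower of 15. Of 6 other mismatch repair genes, 2 were higher and 4 lower (median -0.27), *Msh3*, a mismatch recognition subunit like *Msh6*, among the lower ones (-0.74), whereas *Msh6* rose. Among 28 other FA and recombination genes, 11 were higher, the FA conjugating enzyme *Ube2t* among them, and 9 lower, with *Usp1*, which removes ubiquitin from FANCD2, and the core ligase *Fancl* among those.

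With RGLS4326 against PBS, 4 of the 28 other FA and recombination genes were higher (*Dna2*, *Gen1*, *Usp1* and *Rmi1*) and 1 lower (*Mus81*), that is 14.3% higher and 3.57% lower against 15.3% and 18.5% of all tested genes. Without PBS mice 2 and 11 only the call of *Usp1* remained, and with the percentage of reads outside genes as a covariate none of these 5 was called, with *Rmi1* at -0.0060. *Trp53* read 23.0, 30.9 and 35.9 CPM in UNT (lowest, median and highest mouse), 54.6, 65.9 and 75.4 in PBS and 45.3, 58.9 and 67.8 in RGLS4326, and it fell with treatment (-0.20 ± 0.070, adjusted p = 0.0279), a call lost without PBS mice 2 and 11 (adjusted p = 0.0900) and with the covariate. *Uvssa* read 37.2, 45.2 and 53.9 CPM in UNT, 9.79, 15.7 and 25.1 in PBS and 14.1, 25.7 and 42.4 in RGLS4326 (0.59 ± 0.17, adjusted p = 0.0111), and with the covariate its log2 fold change was 0.032. These treatment values rest on the same libraries as those of the 36 genes.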
